A study of Mus musculus with 71 samples.

Results

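Among 155738 numbered chromatin intervals measured by CaTS-ATAC, 1226 were lower in MUT than in WT on day 11 in p0-p1 progenitors but not in p2 or pMN progenitors. CaTS-ATAC is ATAC-seq, which reads open chromatin by how readily the Tn5 enzyme inserts into it, on fixed cells sorted by antibodies against proteins inside the cell. The intervals were chosen by the day 11 libraries themselves. In each population the mean of log2(value + 5) over the 3 WT libraries was subtracted from the mean over the 3 MUT libraries, where the value is the authors' normalised read count. Members had a difference of -1 or less in p0-p1 and a difference above -0.4 in both p2 and pMN. The day 11 difference between genotypes is therefore a description here, and so are all calls that use the day 11 libraries. Calls made in days 5, 7 and 9 alone compare libraries that played no part in the choice. The spread behind their p-values, however, was estimated from all libraries, those of day 11 included.

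The cells were mouse embryonic stem cells differentiated in culture towards the ventral spinal cord, with retinoic acid and the Smoothened agonist SAG, and collected on days 5, 7, 9 and 11. The 2 genotypes are WT and MUT. Which gene is mutated is not named in the labels, so its level could not be checked. NFIAn and NFIAp in the titles are read here as cells sorted without or with the protein NFIA. All MUT groups were NFIAn, as were the WT groups of days 5 and 7. On day 9 WT p0-p1 was NFIAn, and WT p2 and pMN were held as both fractions. On day 11 every WT group was NFIAp, so genotype and NFIA fraction cannot be told apart in the day 11 comparison. The p0-p1 groups had 2 WT and 3 MUT libraries on day 5, 3 of each on day 7, 3 WT and 2 MUT on day 9, and 3 of each on day 11. No source used here says whether replicates came from separate differentiations, so the spread that p-values measure may be technical.

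In the embryonic spinal cord, graded Sonic hedgehog signalling divides the ventral progenitors into domains. The p0 and p1 domains lie furthest from the source among those sorted here and give rise to ventral interneurons, p2 gives rise to other interneurons, and pMN gives rise to motor neurons and later to oligodendrocyte precursors. NFIA is a transcription factor known from the change of neural progenitors from making neurons to making glia. Accessible intervals away from promoters often act as enhancers, and many are open in 1 domain or at 1 stage only.

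The libraries held 20034731 to 31315134 reads in intervals, with a median of 24375871, and the 6 day 11 p0-p1 libraries held 24862462 to 27665404. The pMN libraries of day 7 numbered 3 went against their genotype labels. In a run of consecutive intervals where the other MUT libraries had summed values of at most 1.14 and the other WT libraries of at least 142, the library labelled MUT had 263 and the library labelled WT had 0. Another library, WT day 9 p2 NFIAp replicate 2, was judged to lie with pMN rather than p2, and no measure of this is given here. None of these 3 is a p0-p1 library, and results that rest on them are given with and without them. The table carries no positions or gene names, so the intervals are named by number, the labelled populations could not be checked against marker genes, and no sequence is shown.

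Most members were open in WT p0-p1 on day 11 and had low values in p2 and pMN on that day. Their median value was 63.3 in WT p0-p1 on day 11 (median over the 1226 intervals of the mean over 3 libraries; lowest 10.3, highest 595). In WT p2 it was 5.30 and in WT pMN 5.14, each over 3 libraries. In MUT p0-p1 the median was 21.6, against 6.0 in MUT p2 and 5.62 in MUT pMN. The median difference between MUT and WT was -1.18 in p0-p1 (lowest -2.21), 0.06 in p2 and 0.06 in pMN, on the log2(value + 5) scale. The p0-p1 difference was -1.5 or less in 119 members and -2 or less in 3.

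Against 2 other WT populations, 1160 members (94.6%) were restricted to p0-p1 on day 11, that is, higher in WT p0-p1 by at least 1 on the log2 scale than in both p2 and pMN. Only 4.92% of all tested intervals were. Another 35 members were shared with both populations and 31 differed from 1 of them. In 852 members (69.5%) the mean value was under 10 in both WT p2 and WT pMN on day 11, against 18.6% of all tested intervals. Of the 26 groups in the series, WT p0-p1 on day 11 had the highest mean in 1172 members (95.6%), against 6.47% of all tested intervals. The rule asks for a p0-p1 level that can fall by at least 1 on the log2 scale, which a closed interval cannot do, so part of this restriction follows from the choice.

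The fall in MUT was partial in most members. MUT p0-p1 on day 11 stayed above both MUT p2 and MUT pMN in 1136 members (92.7%, against 36.7% of all tested intervals). In 673 members (54.9%, against 3.22%) it did so by at least 1 on the log2 scale. MUT p0-p1 on day 11 was at or above the WT day 9 p0-p1 mean in 1056 members (86.1%, against 51.4%). It was at least 1 below that mean in 7 (0.571%, against 1.96%). In p2 and pMN the genotypes differed by no more than 0.4 in either direction in 948 members (77.3%, against 43.7%). MUT was higher by more than 0.4 in at least 1 of these populations in 278 (22.7%, against 33.6%). The rule sets only the lower side of that range.

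**Figure D1:**
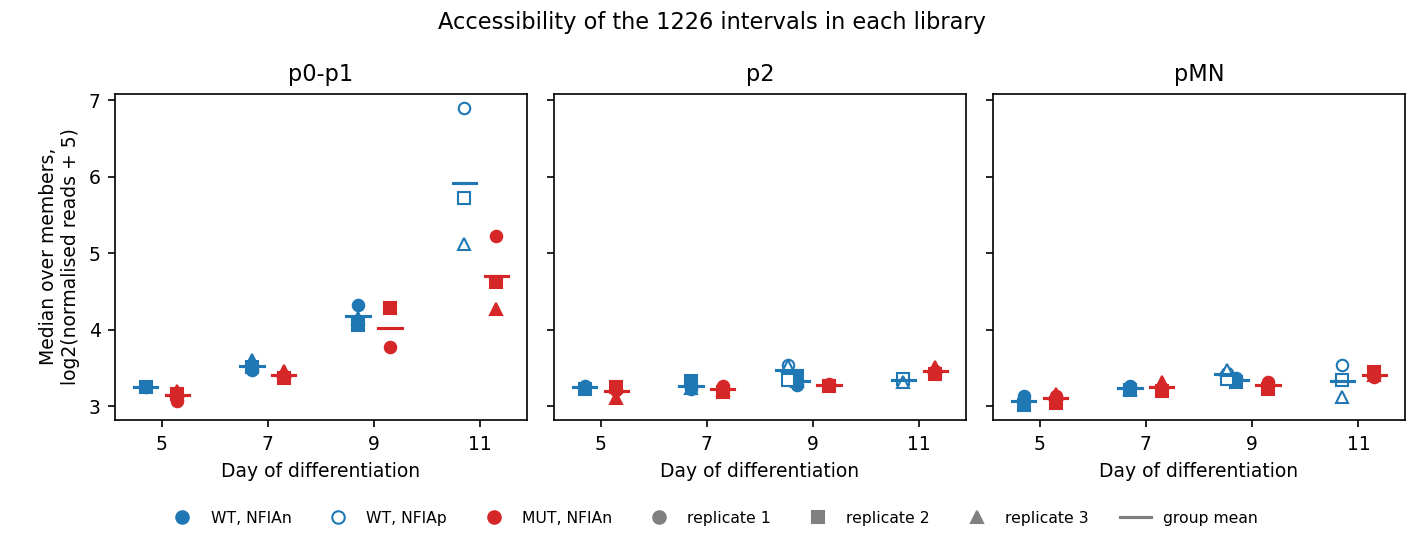
Median over the 1226 members of log2(normalised reads + 5) in each library (vertical axis) by day (horizontal axis), for p0-p1, p2 and pMN; colours are genotypes, open symbols NFIAp, symbol shapes replicate numbers and bars group means. The p0-p1 libraries of days 9 and 11 stand above those of p2 and pMN in both genotypes, and the 3 WT p0-p1 libraries of day 11 spread from 5.13 to 6.90.

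The 6 day 11 p0-p1 libraries fell into a graded series rather than 2 tight groups. The member median of log2(value + 5) was 6.90 in WT replicate 1, 5.73 in WT replicate 2 and 5.13 in WT replicate 3. In MUT it was 5.23 in replicate 1, 4.63 in replicate 2 and 4.27 in replicate 3. MUT replicate 1 thus lay above WT replicate 3, and the groups overlapped. In linear values the medians were 114, 48.1 and 29.9 in WT, and 32.5, 19.7 and 14.3 in MUT.

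Replicate 1 was the highest of the 3 WT libraries in 1215 members (99.1%), against 40.1% of all tested intervals, and the highest of the 3 MUT libraries in 1122 (91.5%, against 38.5%). The median range over the WT libraries was 1.75 on the log2 scale in members and 0.47 in all tested intervals. Over the MUT libraries it was 0.98 and 0.41. Within a shared number MUT was lower than WT in all 1226 members for replicates 1 and 2 and in 1218 for replicate 3. In all tested intervals the shares were 49.8%, 48.8% and 47.6%. The rule asks for a lower MUT mean, so part of this follows from the choice. The median difference was -1.65 between the libraries numbered 1, -1.13 between those numbered 2 and -0.85 between those numbered 3.

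All 3 MUT libraries lay below all 3 WT libraries in 488 members (39.8%), against 16.2% of all tested intervals. MUT replicate 1 exceeded WT replicate 3 in 721 members (58.8%), close to the 56.7% of all tested intervals. Among the 7325 intervals that were lower in MUT by at least 1 in all 3 populations, 98.6% had no overlap in p0-p1, and their median range over the WT libraries was 0.55. The 6497 other intervals restricted to WT p0-p1 on day 11 showed the same order of WT libraries more weakly, with replicate 1 highest in 75.1% and a median range of 1.15. Their library medians were 6.32, 5.58 and 5.37 in WT, and 5.68, 5.29 and 5.15 in MUT. What sets replicate 1 apart was not tested, and no value of another population's markers could be read from this table.

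The membership itself turned on WT replicate 1. Applied again without that library, the rule found 145 intervals, 139 of them members. Without WT replicate 2 it found 1662, and without WT replicate 3 it found 2922. Without MUT replicate 1 it found 2241, without MUT replicate 2 1159 and without MUT replicate 3 594. When both libraries of a number were left out together, 573 intervals met the rule without number 1, 1523 without number 2 and 2147 without number 3.

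**Figure D2:**
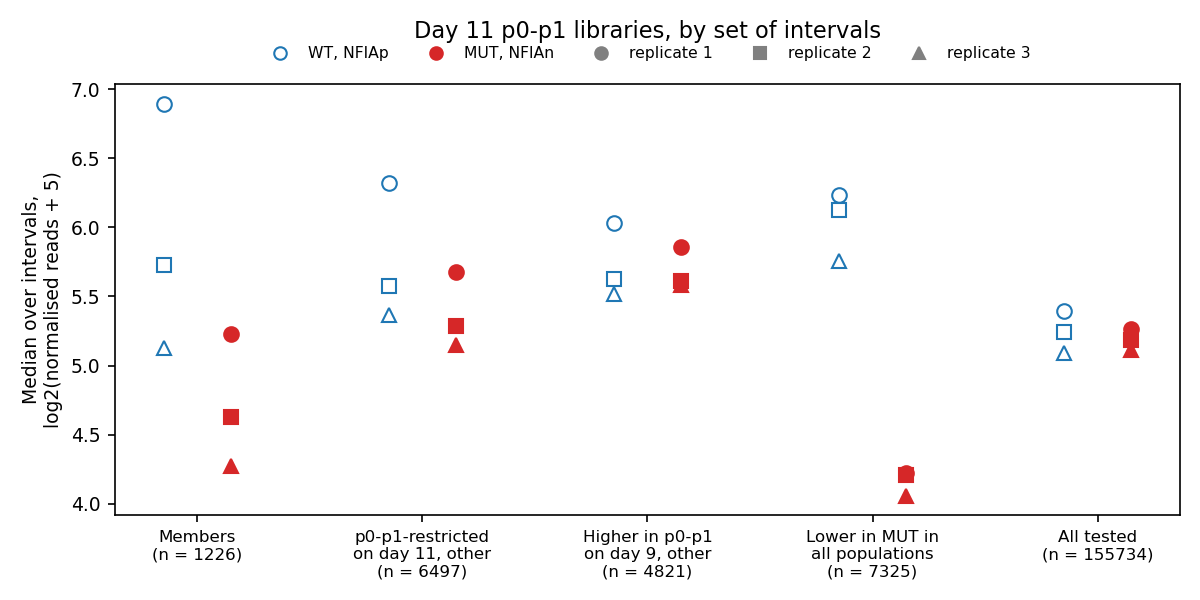
Median of log2(normalised reads + 5) over the intervals of each set (vertical axis) in the 6 day 11 p0-p1 libraries, for the members, 3 other sets and all tested intervals; open symbols are WT, filled symbols MUT and shapes replicate numbers. In members the WT libraries run from 5.13 to 6.90 and overlap MUT, while in the intervals lower in MUT in all populations they run from 5.76 to 6.23, above MUT at 4.06 to 4.22.

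In most of the intervals with the strongest fall and no overlap between the groups, MUT values were low. Interval_59692 had values of 138, 71.2 and 46.3 in WT replicates 1 to 3, and 27.4, 13.4 and 4.48 in MUT. All 3 MUT libraries were below the lowest WT library, and the difference was -2.21 (SE 0.35). Its values in p2 and pMN on day 11 were between 0.00 and 5.20 in both genotypes.

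Interval_128281 fell from 86.8, 44.5 and 20.9 in WT to 12.8, 9.85 and 0.896 in MUT, a difference of -2.08 (SE 0.29). Interval_27611 had 87.8, 28.5 and 25.4 in WT, and 6.85, 4.48 and 6.27 in MUT, a difference of -2.07 (SE 0.26). In both intervals WT replicate 1 stood well above every other library. Interval_17463 was the most open of this group in WT, with 415, 157 and 85.3, and kept 81.3, 37.6 and 26 in MUT. The 4 others named by the same rule (Interval_56648, Interval_100550, Interval_40659 and Interval_19272) had differences from -1.99 to -1.92.

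**Figure D3:**
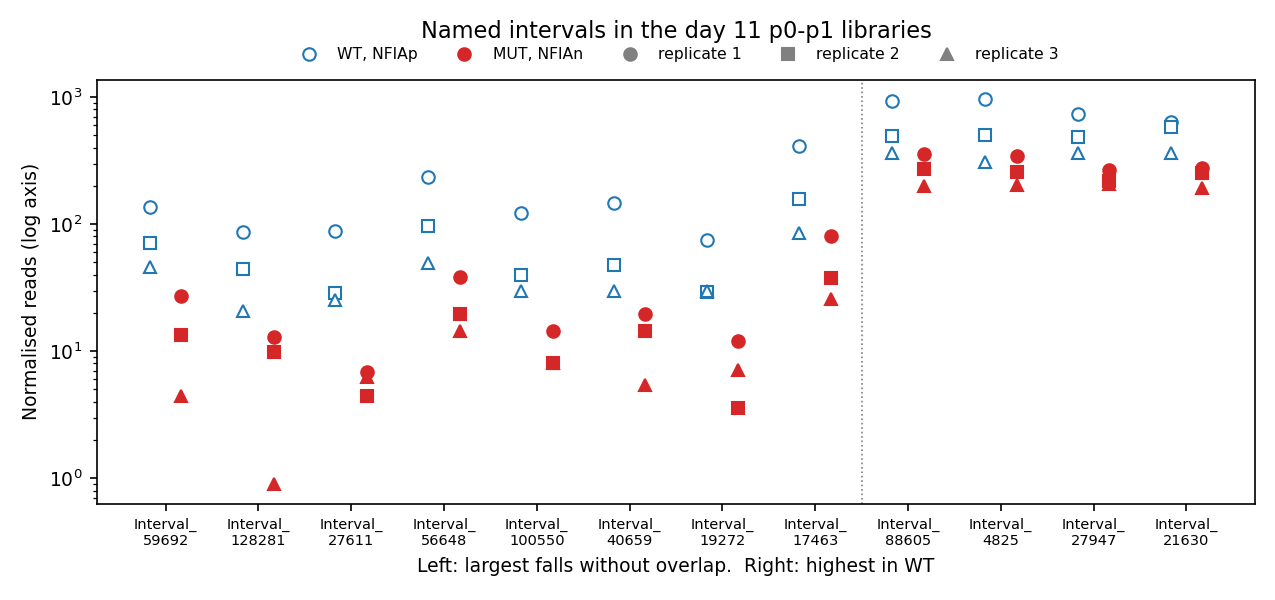
Normalised reads (vertical log axis) in the 6 day 11 p0-p1 libraries for the 8 members with the largest falls and no overlap (left of the dotted line) and the 4 members with the highest WT mean (right); open symbols are WT, filled symbols MUT and shapes replicate numbers. WT replicate 1 is the highest library in each of the 12 intervals, and Interval_4825 is the only one of them in which the groups overlap.

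The most open members had differences close to the threshold and were open in p2 and pMN as well. Interval_88605 had 927, 496 and 363 in WT p0-p1 on day 11, and 353, 273 and 198 in MUT. The groups did not overlap, although MUT replicate 1 came close to WT replicate 3. The difference was -1.03 (SE 0.31), and WT means in p2 and pMN were 154 ± 24.1 and 177 ± 32.2 (SD, n = 3). Interval_4825 had 963, 503 and 310 in WT, and 347, 257 and 202 in MUT, so that 1 MUT library exceeded the lowest WT library. Interval_21630 had 639, 581 and 361 in WT, and 275, 254 and 191 in MUT, with no overlap. Its WT means were of like size in p2 (453 ± 68.6) and pMN (559 ± 12.2), where the MUT differences were -0.32 and -0.38, just inside the limit of -0.4.

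Near the threshold the rule separated like intervals. The 3 members nearest to it, Interval_103961, Interval_140327 and Interval_98857, had p0-p1 differences that all round to -1.0. The nearest intervals left out, Interval_11347, Interval_52855 and Interval_35183, also round to -1.0. Interval_98857, a member, had 94.6, 48.1 and 19.1 in WT and 48.8, 16.1 and 8.96 in MUT. Interval_35183, left out, had 60.5, 28.5 and 10.9 in WT and 20.5, 8.06 and 8.06 in MUT. The genotypes overlapped in both intervals: MUT replicate 1 exceeded WT replicates 2 and 3 in Interval_98857, and only WT replicate 3 in Interval_35183.

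For all tests log2(value + 5) was fitted with limma over all 71 libraries, and a call needed both a log2 difference of at least 1 and an adjusted p (Benjamini-Hochberg) under 0.05. The tests covered 155734 intervals, each reaching 10 in 2 or more libraries. Of the members 1225 passed that filter, and Interval_98401 did not. Without the 6 day 11 p0-p1 libraries 953 members would have passed, and 884 passed in the day 9 libraries alone, so many members were seen mainly through the group that chose them. In the comparison the rule used, 1222 members were called lower, where 6.57% of all tested intervals were, and none higher, where 1.18% were. The rule fixed that direction and size, so nothing is read from this count. The 3 members not called were Interval_32772, Interval_50270 and Interval_85985. With a fit of the 6 p0-p1 libraries alone, whose own spread then counts, 404 were called, where 5.72% of all tested intervals were. Without WT replicate 1, 134 were called. The difference between the p0-p1 effect and the mean effect in p2 and pMN was called lower in 559 members, where 0.787% of all tested intervals were, and higher in none, where 1.01% were. That count also restates the rule, which set all 3 differences. In p2 alone and in pMN alone, 3 members were called higher (2.54% and 3.32% of all tested intervals) and none lower (7.85% and 8.46%). The 3 in p2 were Interval_16776, Interval_44231 and Interval_46333, and the 3 in pMN were Interval_34382, Interval_84591 and Interval_129050, with differences from 1.04 to 1.50. At an unadjusted p under 0.05 there were 43 members in p2 (3.51%, against 37.2% of all tested intervals) and 49 in pMN (4%, against 38.1%). The rule's limits on these differences bear on both counts.

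On day 9 both genotypes were NFIAn. In the fit of all libraries, members were called lower in MUT p0-p1 at about the background rate. The member medians were 4.32, 4.07 and 4.16 on the log2(value + 5) scale in WT replicates 1 to 3, and 3.77 and 4.28 in MUT replicates 1 and 2. One MUT library lay below all WT libraries and the other above 2 of them. The median member difference was -0.13, against 0.04 in all tested intervals. It was 0.16 without MUT replicate 1 and -0.39 without MUT replicate 2, so the direction rested on 1 library. By limma 2 members were called lower (0.163%, where 0.151% of all tested intervals were) and none higher (0.272%). At an unadjusted p under 0.05 there were 58 members (4.73%, against 13.9% of all tested intervals), and edgeR's quasi-likelihood test on recovered reads called 1. The limma fit takes its spread from day 11 too, where members ranged widely between WT libraries. In a fit of only these groups 8 were called. The share of all tested intervals in that fit is not given here.

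The called members were Interval_27947 and Interval_123187. Interval_27947 had 360, 268 and 285 in WT p0-p1 on day 9, and 163 and 124 in MUT. Both MUT libraries lay below all WT libraries (difference -1.06, SE 0.20, limma adjusted p = 0.0027). Without MUT replicate 2 the difference was -0.87 (limma adjusted p = 0.132), and without WT replicate 1 it was -0.94, and neither was called. It also fell just short of the fold threshold with a pseudocount of 20 and with equal library totals (both -0.99). On day 7 it had 129, 120 and 134 in WT, and 77.6, 96.6 and 71.9 in MUT, again without overlap, but the difference of -0.62 (SE 0.18) was not called (limma adjusted p = 0.0587). On day 5 the values were 54.3 and 52.9 in WT, and 45.4, 65.7 and 67.3 in MUT, which overlap. This interval lies in a stretch of the numbering whose p0-p1 values were lower in MUT over days 5, 7 and 9, and the part of that stretch in the difference was not tested.

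Interval_123187 was near background, with 9.40, 7.24 and 10.9 in WT and 1.92 and 0.00 in MUT on day 9 (difference -1.26, SE 0.34, limma adjusted p = 0.0399). Leaving out any 1 of the 5 libraries ended the call, with adjusted p from 0.0512 to 0.393, and so did edgeR (adjusted p = 0.111). On day 11 it had 115, 40.0 and 16.3 in WT, and 18.0, 10.7 and 8.06 in MUT, where MUT replicate 1 exceeded WT replicate 3.

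Earlier days showed no member called in p0-p1 between the genotypes in the fit of all libraries. Median member values in p0-p1 were 6.70 in WT and 5.85 in MUT on day 7, and 4.51 and 4.20 on day 5. Such low values leave little room for a fall of 1 on the log2(value + 5) scale. On day 7 limma called none higher (0.215% of all tested intervals) and none lower (0.0546%), and edgeR called none. At an unadjusted p under 0.05 there were 92 members (7.51%, against 14.3% of all tested intervals). Paired by replicate number, in a fit of only these groups with the number as a block, limma called 1 higher (Interval_34362, 1.02) and 5 lower (Interval_22950, Interval_24173, Interval_52484, Interval_61761 and Interval_69839, from -1.08 to -1.02). These 6 are named after their values were seen. The shares of all tested intervals in this paired fit are not given here, so neither an excess nor a direction is read from these counts. The median difference was -0.11, and the library medians were 3.48, 3.51 and 3.61 in WT, and 3.40, 3.37 and 3.46 in MUT. The 3 MUT libraries were all below the 3 WT libraries by this small margin. On day 5 limma again called none in either direction (0.107% higher and 0.0295% lower in all tested intervals), and edgeR called none. There were 45 members at an unadjusted p under 0.05 (3.67%, against 9.97% of all tested intervals), and the median difference was 0.00. No member was called for a difference between the day 9 genotype effect in p0-p1 and that in p2 and pMN, nor was any other interval. In this comparison 30 members had an unadjusted p under 0.05 (2.45%, against 2.15% of all tested intervals).

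In p2 and pMN on day 9, 3 members were called between MUT and WT NFIAn, and they are named after their values were seen. Interval_72182 was higher in MUT p2, at 128 and 159 against 43.8, 59.3 and 60.6 in WT (difference 1.33, SE 0.37, limma adjusted p = 0.0382), with no overlap. Leaving out any 1 of these 5 libraries ended the call (limma adjusted p from 0.065 to 0.352), as did a pseudocount of 1 (0.0646) and quantile normalization (0.054). It was the only member called higher there (0.571% of all tested intervals), and none was called lower (0.254%). Interval_113645 was higher in MUT pMN, at 61.2 and 72.0 against 19.1 and 28.9 in WT (difference 1.32, limma adjusted p = 0.0189; 1.22% of all tested intervals were called higher). Its call was lost without either MUT library (limma adjusted p = 0.0694 and 0.194), without WT replicate 1 (0.325), after quantile normalization (0.0553), in a fit of only these groups (0.0615), and with a pseudocount of 20, where the difference was 0.98. Interval_60466 was lower in MUT pMN, at 3.95 and 3.51 against 18.0 and 9.97 (difference -1.09, limma adjusted p = 0.0266; 0.489% of all tested intervals were called lower). That call too was lost without either MUT library (limma adjusted p = 0.104 and 0.193), without WT replicate 1 (0.438), with pseudocounts of 1 (0.0562) and 20 (a difference of -0.51), and in a fit of only these groups (0.145).

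Members became more open in p0-p1 between days 5 and 9 in both genotypes. The median member value in WT p0-p1 was 4.51 on day 5, 6.70 on day 7 and 13.3 on day 9, and in MUT 4.20, 5.85 and 12.0. By limma 531 members (43.3%) rose from day 5 to day 9 in WT, where 16.6% of all tested intervals did, and 17 (1.39%) fell, where 12.3% did. In MUT 448 rose (36.6%, against 18.1%) and 24 fell (1.96%, against 12.9%). The median change was 0.87 in WT and 0.76 in MUT, against 0.01 in all tested intervals for each. These changes are on a scale that understates low values, and edgeR on recovered reads gave medians of 1.58 and 1.43. The median change in MUT was 0.51 without MUT day 9 replicate 2 and 1.01 without replicate 1, so its size depended on the library kept.

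The 2 steps of this rise were as follows. From day 5 to day 7 limma called 136 members higher in WT (11.1%, against 9.94% of all tested intervals) and 51 in MUT (4.16%, against 9.91%). From day 7 to day 9 it called 260 higher in WT (21.2%, against 5.5%) and 276 in MUT (22.5%, against 6.39%). Few members fell in either step: from day 5 to day 7 they were 14 in WT and 12 in MUT (4.88% and 4.79% of all tested intervals), and from day 7 to day 9 they were 5 and 7 (5.27% and 5.21%). The median change was 0.26 and then 0.60 in WT, and 0.17 and then 0.53 in MUT. These 2 steps share the day 7 libraries, and their difference was not tested.

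Interval_88605 rose most in WT, from 10.2 and 4.50 on day 5 to 186, 124 and 171 on day 9 (change 3.76, SE 0.35, limma adjusted p = 3.2e-14). In MUT it went from 19.3, 9.81 and 17.9 to 86.6 and 185 (change 2.71, SE 0.35, limma adjusted p = 1.6e-09), with no overlap between days in either genotype. Interval_51923 rose from 10.2 and 0.00 to 99.6, 70.6 and 90.9 in WT, and from 4.54, 8.83 and 6.31 to 34.6 and 98.7 in MUT. Interval_7536 stayed low until day 7, at 8.58, 7.44 and 10.3 in WT, and reached 176, 89.7 and 95.8 on day 9. In MUT the day 9 libraries of this interval held 61.5 and 54.4, both below WT, with a genotype difference of -0.93 (SE 0.38, limma adjusted p = 0.23) that was not called.

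The 3 members with the largest fall from day 5 to day 9 in WT differed in what followed. Interval_109689 fell from 172 and 190 on day 5 to 55.4, 37.1 and 63.2 on day 9 in WT (change -1.74, SE 0.35, limma adjusted p = 3.7e-05). It then stood at 243, 114 and 65.3 in WT on day 11, all above day 9, while MUT held 65.9, 49.2 and 42.1. Interval_137949 fell from 55.4 and 48.4 to 13.2, 9.06 and 7.90, and had 59.5, 35.6 and 14.5 in WT on day 11. Interval_75251 fell from 338 and 273 to 20.7, 29.9 and 24.7 in WT, and from 528, 689 and 650 to 44.2 and 36.2 in MUT. Its day 11 values were 44.9, 21.4 and 13.6 in WT, which overlap day 9, and 7.70, 10.7 and 8.96 in MUT, which lie below it.

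The last step ran from day 9 to day 11. In WT p0-p1 limma called 1136 members higher on day 11 (14.3% of all tested intervals) and none lower (5.34%), with a median change of 1.71. In MUT p0-p1 it called 259 higher (6.35%) and 8 lower (4.6%), with a median change of 0.63. Both comparisons use libraries that chose the members, and the WT step also passes from NFIAn to NFIAp, so they are descriptions.

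Members were already set apart by population on day 9, in libraries that played no part in their choice. All 3 WT p0-p1 libraries lay above all 5 NFIAn libraries of p2 and pMN in 708 members (57.7%), against 9.98% of all tested intervals. By limma 421 members (34.4%) were higher in WT p0-p1 than in the mean of p2 and pMN, where 3.37% of all tested intervals were. Only 1 was lower (0.0816%, against 0.746%). The median difference was 0.76, against -0.01 in all tested intervals. In MUT 281 members were higher in p0-p1 (22.9%, against 3.1%) and 2 lower (0.163%, against 1.52%), with a median difference of 0.63. Both MUT p0-p1 libraries lay above all 4 MUT libraries of p2 and pMN in 640 members (52.2%, against 13.6% of all tested intervals). Without MUT p0-p1 replicate 2, however, the median difference in MUT was 0.39, and without replicate 1 it was 0.89. Its size thus depended on the library kept. Taken separately, 445 members were higher in WT p0-p1 than in p2 (2.36% of all tested intervals) and 2 lower (1.96%), and 409 were higher than in pMN (6.21%) and 1 lower (1.9%).

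Before day 9 the populations differed in few members. On day 5 limma called 6 members higher in WT p0-p1 than in the mean of p2 and pMN (1.81% of all tested intervals) and 10 lower (6.53%), with a median difference of 0.06. In MUT it called 7 higher (1.92%) and 14 lower (6.46%). On day 7 it called 66 higher in WT (5.39% of members, against 1.94% of all tested intervals) and 2 lower (2.82%), with a median difference of 0.22. In MUT on day 7 it called 18 higher (1.47%, against 2.52%) and 2 lower (2.68%), with a median of 0.16. Without the 2 day 7 pMN libraries that went against their labels, it called 70 higher and 1 lower in WT (median 0.21), and 21 higher and 3 lower in MUT (median 0.17). The days were not tested against each other in this difference.

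This day 9 pattern was shared with the rest of the intervals restricted to p0-p1. Of the 6497 restricted intervals that were not members, 35.5% were called higher in WT p0-p1 on day 9, with a median difference of 0.80, close to the 34.4% and 0.76 of the members. Their median change in WT from day 5 to day 9 was 0.79. Their median day 11 difference between the genotypes was -0.46, and 73.1% of all 7657 restricted intervals, members included, were below 0 on that measure. Members made up 15.1% of the restricted intervals.

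**Figure D4:**
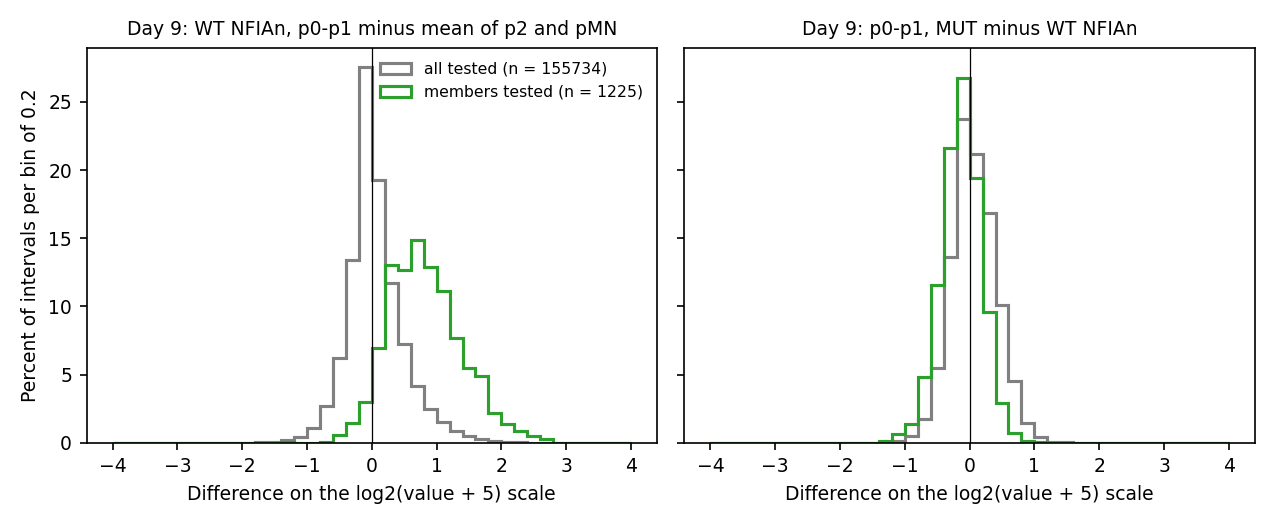
Percent of intervals per bin of 0.2 (vertical axis) by difference on the log2(value + 5) scale (horizontal axis) on day 9, for members and all tested intervals: left, WT NFIAn p0-p1 minus the mean of p2 and pMN; right, MUT minus WT in p0-p1. Members are shifted to higher values on the left, with a median of 0.76, and lie around 0 on the right, with a median of -0.13.

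Interval_143708 showed the largest separation of populations on day 9. It had 80.8, 57.1 and 73.1 in WT p0-p1, and between 0.931 and 10.9 in the 5 NFIAn libraries of p2 and pMN (difference 2.77, SE 0.34, limma adjusted p = 8.7e-09). In MUT p0-p1 it had 21.2 and 96.0, against 3.80 to 5.92 in p2 and pMN, so both genotypes kept the populations apart. On day 11 it reached 718, 345 and 181 in WT, and 175, 140 and 88.7 in MUT. Interval_51923 and Interval_85339 followed, with differences of 2.75 and 2.61 in WT, and 2.25 and 2.30 in MUT. In each of these 3 intervals MUT day 9 replicate 1 was lower than every WT library and replicate 2 was within or above the WT range.

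Interval_26650 was the 1 member lower in p0-p1 than in p2 and pMN on day 9. It had 25.4, 16.3 and 15.8 in WT p0-p1, and 31.8 to 88.9 in the 5 libraries of p2 and pMN (difference -1.21, SE 0.29, limma adjusted p = 0.0021). On day 11 WT p0-p1 held 133, 153 and 117, below WT p2 at 286 to 374 and WT pMN at 239 to 282. It is one of the members that were not restricted to p0-p1.

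The 421 members called higher in WT p0-p1 on day 9 had a median value of 99.4 in WT on day 11, and the 805 others had 51.0. In MUT on day 11 the medians were 36.9 and 16.4. Values in the others were low on day 9, with medians of 9.17 in WT and 8.77 in MUT, which limits what could be called there.

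The NFIA fractions could be compared within WT on day 9 only in p2 and pMN, since day 9 p0-p1 was NFIAn alone. In p2 limma called 8 members higher in NFIAp (0.653%, where 1.14% of all tested intervals were) and 2 lower (0.163%, against 2.61%). One of these libraries, WT p2 NFIAp replicate 2, was judged to lie with pMN. Without it and the 2 day 7 libraries that went against their labels, 40 of 1225 members were higher and 2 lower. The median member difference was then 0.25. Calls rose in all tested intervals as well, from 1781 to 5676 of 155734 higher and from 4058 to 4720 lower. Paired by replicate number, in a fit of only these groups, 3 were higher (Interval_57280, Interval_100528 and Interval_101947) and 1 lower (Interval_128557). In pMN limma called none higher (0.0122% of all tested intervals) and none lower (0%), and edgeR called none. At an unadjusted p under 0.05 there were 46 members (3.76%, against 9.77% of all tested intervals). Paired by replicate number, in a fit of only the pMN groups, limma called 9, and the share of all tested intervals is not given here. Residuals of the pMN libraries of the same number correlated at 0.37 for number 1 and 0.068 for number 2. The median difference was 0.18 in p2 and 0.08 in pMN. No member was called for a difference between the 2 populations in this effect. Without that p2 library and the 2 day 7 libraries that went against their labels 1 was, Interval_82125 (difference 1.97, limma adjusted p = 0.018), named after its value was seen.

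Interval_100528 was higher in NFIAp p2, with 13.2, 12.4 and 15.9 against 0.931, 2.20 and 2.52 in NFIAn (difference 1.46, SE 0.31, limma adjusted p = 0.00073). Interval_70423 was also called higher, with 15.0, 10.4 and 85.2 against 7.45, 7.69 and 6.73, but its difference of 1.30 fell to 0.51 and was not called without NFIAp replicate 3. Nor was it called without NFIAn replicate 2 or 3 (limma adjusted p = 0.0561 and 0.0744) or in the paired fit (0.119). Interval_128557 was lower in NFIAp, with 57.3, 62.2 and 51.5 against 124, 121 and 123 (difference -1.04, SE 0.23, limma adjusted p = 0.0011), and was -0.98 and not called without NFIAp replicate 3. Interval_96285 was lower too, with 14.1, 5.18 and 9.37 against 19.6, 25.3 and 26.1, a difference of -1.02 that was -0.78 and not called without NFIAp replicate 2. This call was also lost without NFIAp replicate 3, NFIAn replicate 2 or NFIAn replicate 3, in the paired fit (limma adjusted p = 0.0813) and by edgeR (adjusted p = 0.0519). None of these 4 intervals overlapped between the fractions.

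Members were spread over the whole numbering of the table. In 156 bins of up to 1000 consecutive numbers the count of members ranged from 0 to 18, with a median of 7, and 2 bins held none. As many as 1159 members had no member next to them, 64 formed 32 runs of 2, and 3 formed a run. That run was Interval_59690, Interval_59691 and Interval_59692, whose day 11 differences were -1.23, -1.34 and -2.21. Interval_59690 had 124, 63.2 and 39.0 in WT, and 43.6, 26.9 and 14.3 in MUT. Interval_59691 had 249, 86.3 and 39.0 in WT, and 53.9, 34.0 and 22.4 in MUT. In both, MUT replicate 1 exceeded WT replicate 3. Whether neighbouring numbers are neighbours on a chromosome is not stated in the table.

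Some stretches of the numbering differed between the genotypes as a whole. In 20 bins the median p0-p1 difference between MUT and WT, averaged over days 5, 7 and 9, lay more than 0.1 on the log2 scale below that of the median bin. They held 12.8% of intervals and 176 members (14.4%), among them Interval_27611, Interval_19272, Interval_27947, Interval_21630 and Interval_143708. A further bin lay as far above it and held 3 members, among them Interval_40659. The other 135 bins held 1047 members, and the part of these stretches in the day 11 difference was not tested.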

How the data were processed

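The study measured chromatin accessibility by CaTS-ATAC in 71 libraries (38 WT, 33 MUT) that the labels place in 26 groups by genotype, day, population and NFIA fraction. The signal values that the authors deposited are, as read from their steps, whole reads in each numbered consensus interval scaled by a single factor for each library. The build was mm10 per the submitters' processing notes. For the aligner, peak caller and counting tool, names are not given in the sources used here. Every column had a smallest step, and the deposited values divided by that step were whole reads in 100% of cases, within a tolerance of 0.01. In 2 libraries (replicate 1 of MUT p2 on day 11, and replicate 2 of WT NFIAn pMN on day 9) the step was near 1. It was 1.006 and 0.997, so the values of these libraries were scaled as well, by little. Reads are not all independent molecules, so depth speaks for counting error only.

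On log2(value + 5), limma 3.58.1 (R 4.3.3) fitted a mean for each of the 26 groups, using every library, which left 45 residual degrees of freedom. The variance was allowed a trend with the mean. A fold on this scale understates the change of low intervals. An interval was tested if it reached 10 in 2 or more libraries, and calls needed a Benjamini-Hochberg adjusted p under 0.05 and a log2 difference of at least 1. The fit was tested on simulated data. The members, comparison sets and rules for named intervals were chosen with earlier results of these data known.

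Named intervals were the 8 members with the largest day 11 fall among those with a WT mean of at least 30 and no overlap, the 4 with the highest WT mean, and the longest run. They also included the 3 nearest the threshold on each side and those with the largest called difference in each test (up to 4 for day 9 genotypes, 3 for days and populations, 2 for NFIA fractions, in each direction).

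Alternatives were pseudocounts of 1 and 20, no filter, a minimum mean of 30, quantile normalization, totals set equal, a fit of only the groups compared, the replicate number as a block, leaving out each library, other limits of the rule (-0.2 and -1.5) and edgeR 4.0.16's quasi-likelihood test on the recovered reads. Added after seeing the data were the block in a fit of only the groups compared, and leaving out both day 11 p0-p1 libraries of a number. Leaving out the 3 libraries that went against their labels or were judged to go against their population was also added then. Members in stretches of the numbering that differ between the genotypes were counted, and these stretches were not left out of any fit. Libraries of the same number deviated together across intervals in day 11 p0-p1 (correlations of residuals 0.37, 0.10 and 0.40 for numbers 1, 2 and 3), day 7 p0-p1 (0.27, 0.18 and 0.18) and the NFIA fractions of day 9 p2 (0.37, 0.11 and 0.18), so these numbers pair the libraries. Across the WT NFIAn populations of day 9, p0-p1 libraries correlated with p2 libraries of the same number at 0.24, 0.08 and 0.18. With pMN libraries numbered 1 and 2 they correlated at 0.23 and 0.068. The day 9 calls between populations come from the fit without a block. Figures were drawn with matplotlib 3.10.9.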

Additional observations from a re-analysis of the deposited data

How the results depend on the processing

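The rule found 413 intervals with a pseudocount of 20 and 119 at a threshold of -1.5, and between 145 and 2922 when a single library was left out. It found 573 without both p0-p1 libraries numbered 1 and 2147 without those numbered 3. Its count stayed within 1.5 times of 1226 under the remaining alternatives, but the intervals found were not all the same. A pseudocount of 1 found 1489 intervals, 940 of them members, and equal totals found 1032, 882 of them members. Quantile normalization found 1075, 1040 of them members. Of the 1222 members called lower in day 11 p0-p1, 519 were called with a pseudocount of 1, 294 with 20, 126 with a minimum mean of 30 and 404 in a fit of only the groups compared, and 134 to 1225 with 1 library left out. The difference of that effect from p2 and pMN, called in 559, gave 71 with a pseudocount of 1, 49 with the minimum mean, 170 in a fit of only the groups, 267 with edgeR, and 46 to 1093 with 1 library left out.

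For day 9 p0-p1 genotypes, 2 members in the report, the counts were 1 with a pseudocount of 1, with the minimum mean, with equal totals and with edgeR, 0 with a pseudocount of 20, 7 after quantile normalization, 8 in a fit of only the groups, and 0 to 1 with 1 library left out. For day 7 they were 2 with a pseudocount of 1 or quantile normalization, 1 in a fit of only the groups or without the 3 doubted libraries, and 0 to 1 with 1 library left out. For day 5 a fit of only the groups gave 1. The 548 changes from day 5 to 9 in WT became 158 with a pseudocount of 20 and 79 with the minimum mean. The 472 in MUT became 108 and 71, and 281 to 604 with 1 library left out. The 422 differences between WT populations on day 9 became 77 and 35. The 283 in MUT became 41 and 26, and 30 to 327 with 1 library left out. For NFIA fractions in p2, 10 calls became 0 with a pseudocount of 20, 1 with the minimum mean, 2 in a fit of only the groups, 42 without the doubted libraries, 28 with edgeR, and 2 to 42 with 1 library left out. In pMN they were 0 to 1 with 1 library left out. For day 9 genotypes in p2, 1 call became 0 with a pseudocount of 1 or quantile normalization, 2 with edgeR, and 0 to 1 with 1 library left out. In pMN, 2 calls became 1 with pseudocounts of 1 and 20 and quantile normalization, 0 in a fit of only the groups, and 0 to 5 with 1 library left out.

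With a replicate block in the fit of every library, day 9 p0-p1 genotypes gave 6 calls and NFIA fractions in pMN 1, and no other count left 1.5 times its value. With the replicate block in a fit of only the groups compared, day 9 p0-p1 gave 13, day 7 p0-p1 6, NFIA fractions 4 in p2 and 9 in pMN, and day 9 genotypes 10 in p2 and 7 in pMN. Numbers did not pair the libraries on day 9 or day 5 in p0-p1 (residual correlations 0.14 and -0.035, and -0.11 and -0.18).

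Member medians moved beyond the spread between replicates in 30 of 227 alternatives. From day 5 to 9 the WT median was 1.40 with a pseudocount of 1 and 0.39 with 20. Of the named intervals' calls, 490 of 588 held. Low values limit the tests: the median member mean over all libraries was 9.51, against 31.8 in all tested intervals. In most of these cases the cause was not tested; a minimum mean of 30 tests fewer members.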
